A study of Homo sapiens with 54 samples.

Results

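The STEAP genes encode a family of metalloreductases, membrane proteins that reduce iron and copper. The 4 members, STEAP1, STEAP2, STEAP3 and STEAP4, were taken from the expression table by their Entrez gene identifiers, and all 4 were found among 19225 genes and other transcripts. They were taken as a gene family, and earlier results of these data were known when they were chosen. The study treated 3 human prostate cancer cell lines with an estrogen, with a synthetic ligand, with an androgen receptor antagonist and with combinations of these, and measured total RNA by sequencing in 54 libraries. LNCaP is a prostate cancer line from a metastatic lymph node that responds to androgens, C4-2 (labelled LNCaP C4-2) is a castration-resistant subline of LNCaP, and 22Rv1 is a line derived from a prostate xenograft that relapsed after castration. All lines were grown in RPMI 1640 medium with fetal bovine serum, so every group, vehicle included, was exposed to what that serum contains.

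Each line was given 6 treatments for 12 h in biological triplicate, which makes 18 groups of 3 libraries. The groups were vehicle (ethanol), E2 (the usual abbreviation of estradiol) at 100 nM, OSU-ERb-12 at 100 nM, Enza (the usual abbreviation of enzalutamide, an antagonist of the androgen receptor) at 1 µM, E2 with Enza, and OSU-ERb-12 with Enza, at the same doses. OSU-ERb-12 was developed as a selective agonist of estrogen receptor beta. Group names below shorten it to OSU. Each line is a single established culture, so replicate libraries measure the spread between cultures of that line and not between tumours.

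Each library held between 32819568 and 52417050 reads assigned to genes, and 1 read was worth 0.0204 to 0.0323 CPM (read counts per 1000000). Each of the 54 libraries correlated best with the median of its own line, taken without the library itself. Of 9 luminal prostate markers all 9 were measured, with a summed level of 3271 to 5594 CPM in LNCaP, 4017 to 5877 CPM in C4-2 and 1891 to 2086 CPM in 22Rv1, and none of the 9 had a mean under 1 CPM. The measured basal or squamous markers (2 of 5 listed) summed to at most 2.63 CPM in any library and the leukocyte markers (2 of 5) to at most 10.3 CPM. Fibroblast markers (3 of 5) reached 21.1 CPM and endothelial markers (1 of 4) 18.7 CPM, both highest in LNCaP. A set of 5 libraries stood apart. C4-2 vehicle 1 carries the cell line tag of 22Rv1 and the title of C4-2. Its correlation with the line medians was 0.998 for C4-2, 0.955 for LNCaP and 0.8088 for 22Rv1. The last value was the highest of the C4-2 libraries, the next being 0.8045 in OSU+Enza 2, and its cause was not tested. C4-2 E2 3 and 22Rv1 vehicle 3 held more mitochondrial ribosomal RNA than the others (0.149% and 0.196% of reads). Within 22Rv1, OSU+Enza 2 and Enza 3 held the most small RNA (6.70% and 6.54%). The comparisons that use these 5 libraries were refitted without them, and the value is given where a call changed. Comparisons of STEAP4 within C4-2 are the exception. Without C4-2 E2 3 the gene failed the filter on low values (at least 1 CPM in 3 libraries) and was not tested. The F tests over lines were not refitted.

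STEAP proteins sit in the plasma membrane and in endosomes, bind heme, and pass electrons from the cytosol to metal ions outside or within the endosome. STEAP2, STEAP3 and STEAP4 carry an oxidoreductase domain that uses NADPH and reduce ferric iron and cupric copper. STEAP1 lacks that domain, can join other members in mixed trimers, and is a surface antigen of prostate cancer against which antibody drugs have been made. STEAP2 is also best known from prostate epithelium, STEAP3 is the ferrireductase of transferrin endosomes in red cell precursors and a p53 target, and STEAP4 is known from adipose tissue and as a gene induced by androgens in prostate cells.

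The members lie in 3 places of the genome. In RefSeq on GRCh38.p14, STEAP1 (chromosome 7, 90154469 to 90164827, plus strand) and STEAP2 (chromosome 7, 90211740 to 90243408, plus strand) are neighbours separated by 46.9 kb. STEAP4 (chromosome 7, 88270892 to 88306894, minus strand) lies 1848 kb away on the same arm, and STEAP3 (chromosome 2, 119223834 to 119265652, plus strand) is on another chromosome. Their coding regions have 339, 490, 498 and 459 codons for STEAP1, STEAP2, STEAP3 and STEAP4. The promoters of the neighbouring pair and of STEAP4 are shown because the levels of these genes rose with E2 in LNCaP and in C4-2. Each sequence runs from 250 bases before to 50 bases after the annotated start and is taken from RefSeq (GRCh38.p14). Capitals mark the estrogen receptor hexamer core GGTCA or the GC box GGGCGG, on either strand.
STEAP1 promoter, chr7:90154219-90154518, plus strand: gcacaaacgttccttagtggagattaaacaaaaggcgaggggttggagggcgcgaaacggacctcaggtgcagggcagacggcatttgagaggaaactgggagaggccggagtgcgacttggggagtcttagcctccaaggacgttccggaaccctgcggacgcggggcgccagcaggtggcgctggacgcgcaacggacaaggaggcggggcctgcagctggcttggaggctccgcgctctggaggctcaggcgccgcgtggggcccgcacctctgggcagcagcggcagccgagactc
STEAP2 promoter, chr7:90211490-90211789, plus strand: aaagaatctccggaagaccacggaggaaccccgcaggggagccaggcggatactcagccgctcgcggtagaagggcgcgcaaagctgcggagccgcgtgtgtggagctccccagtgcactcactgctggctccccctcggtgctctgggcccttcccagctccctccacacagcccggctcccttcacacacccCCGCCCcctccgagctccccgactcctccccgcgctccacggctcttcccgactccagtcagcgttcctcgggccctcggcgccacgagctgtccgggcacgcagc
STEAP4 promoter, chr7:88306845-88307144, minus strand: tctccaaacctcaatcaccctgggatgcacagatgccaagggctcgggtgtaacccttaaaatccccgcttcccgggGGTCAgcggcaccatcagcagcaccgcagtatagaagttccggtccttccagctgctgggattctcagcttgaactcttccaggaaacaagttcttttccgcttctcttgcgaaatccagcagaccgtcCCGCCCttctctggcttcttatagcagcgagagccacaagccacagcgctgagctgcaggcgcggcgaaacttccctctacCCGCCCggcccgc
AGAACA on either strand, the hexamer bound by androgen and related steroid receptors, was in none of these windows, nor in that of STEAP3 or the second RefSeq promoter of STEAP2, and it occurs in 14.8% of 35116 promoters of the same length. GGTCA occurs in 37.4% of those promoters and was present among the STEAP windows only in that of STEAP4, 173 bases before the start. The full palindromes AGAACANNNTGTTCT (0.00285% of promoters) and GGTCANNNTGACC (0.0570%) were in none of them. The GC box, in 45.0% of all promoters, occurred 3 times in the STEAP3 window, 2 times in that of STEAP4, and in the STEAP2 window 56 bases before the start, and it was not in that of STEAP1. STEAP3 had 78.7% G and C in its window, STEAP1 66.7% and STEAP4 58.7%, against a median of 58.7%. A match of letters is a description of the window and not a binding site.

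Before treatment, the neighbouring pair was abundant in LNCaP and C4-2 and much lower in 22Rv1. STEAP1, the surface antigen, was at 173, 187 and 179 CPM in the 3 LNCaP vehicle libraries, at 108, 106 and 104 CPM in C4-2, and at 21.3, 21.5 and 22.7 CPM in 22Rv1. STEAP2, its reductase neighbour, was at 552, 526 and 509 CPM in LNCaP, at 421, 436 and 429 CPM in C4-2, and at 66.0, 65.1 and 72.8 CPM in 22Rv1. For both genes every library of a line with the higher mean lay above every library of the next line. The level in bulk libraries is an average over the culture, so fewer expressing cells and less RNA per cell cannot be told apart.

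STEAP3, the endosomal ferrireductase, had another order. It was at 27.3, 23.4 and 25.5 CPM in LNCaP, at 50.2, 48.3 and 46.9 CPM in C4-2, and at 12.0, 11.6 and 12.4 CPM in 22Rv1, and these groups did not overlap. STEAP4 was close to the limit of detection, with 14, 8 and 21 reads in LNCaP, 12, 16 and 7 reads in C4-2, and 6, 5 and 20 reads in 22Rv1. Its vehicle groups overlapped in all 3 pairs of lines.

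In a fit of all 54 libraries, a gene was called when its adjusted p was below 0.05 (limma, Benjamini-Hochberg over all genes tested). C4-2 minus LNCaP on the log2 scale was -0.76 ± 0.047 (SE) for STEAP1, -0.30 ± 0.039 for STEAP2 and 0.92 ± 0.077 for STEAP3. The difference of 22Rv1 minus LNCaP was -3.01, -2.95 and -1.05 for these genes, and that of 22Rv1 minus C4-2 was -2.25, -2.65 and -1.97. These were 3 of 4 members called in each pair of lines, where 66.7% of all genes were called between C4-2 and LNCaP, 83.3% between 22Rv1 and LNCaP and 84.7% between 22Rv1 and C4-2, so the number of members called was near the background. With scaling to total reads the all-gene median shifted to -0.10 for C4-2 against LNCaP and to 0.22 for 22Rv1 against C4-2, and no direction among the called members changed. STEAP4 differed by -0.098 between C4-2 and LNCaP, -0.19 between 22Rv1 and LNCaP and -0.087 between 22Rv1 and C4-2, none called. Without 22Rv1 vehicle 3 its difference between 22Rv1 and LNCaP was -0.37 (adjusted p = 0.0344). With cyclic loess normalisation it was -0.76, and that between 22Rv1 and C4-2 was -0.86, both called.

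Levels of different genes were compared only per length of the canonical transcript. At vehicle, STEAP1 was the highest member in each line, with 147 ± 5.48 CPM per kb (SD, n = 3) in LNCaP, 86.7 ± 1.69 in C4-2 and 17.9 ± 0.626 in 22Rv1. STEAP2 followed with 75.7 ± 3.11, 61.4 ± 1.04 and 9.73 ± 0.606 CPM per kb. STEAP3 was at 5.96 ± 0.456, 11.4 ± 0.394 and 2.81 ± 0.101 CPM per kb, and STEAP4 at 0.0319 ± 0.0132, 0.0261 ± 0.00758 and 0.0227 ± 0.0175. The order STEAP1, STEAP2, STEAP3, STEAP4 therefore held at vehicle in the 3 lines, with gaps wider than the spread between libraries.

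STEAP1 has a close copy. The first 868 bases of its transcript align with STEAP1B, a gene elsewhere on chromosome 7, at 97.7% identity, so reads there can be assigned to either gene and the level of STEAP1 is uncertain to that extent. STEAP1B itself was low, with group means from 1.36 to 1.94 CPM in LNCaP, 0.880 to 1.38 CPM in C4-2 and 0.254 to 0.833 CPM in 22Rv1. The antisense genes were low too: STEAP2-AS1 reached at most 1.43 CPM and STEAP3-AS1 at most 1.18 CPM in any library. The library kit marks strand, but the strand setting of the counting is not given in the sources used here.

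**Figure D1:**
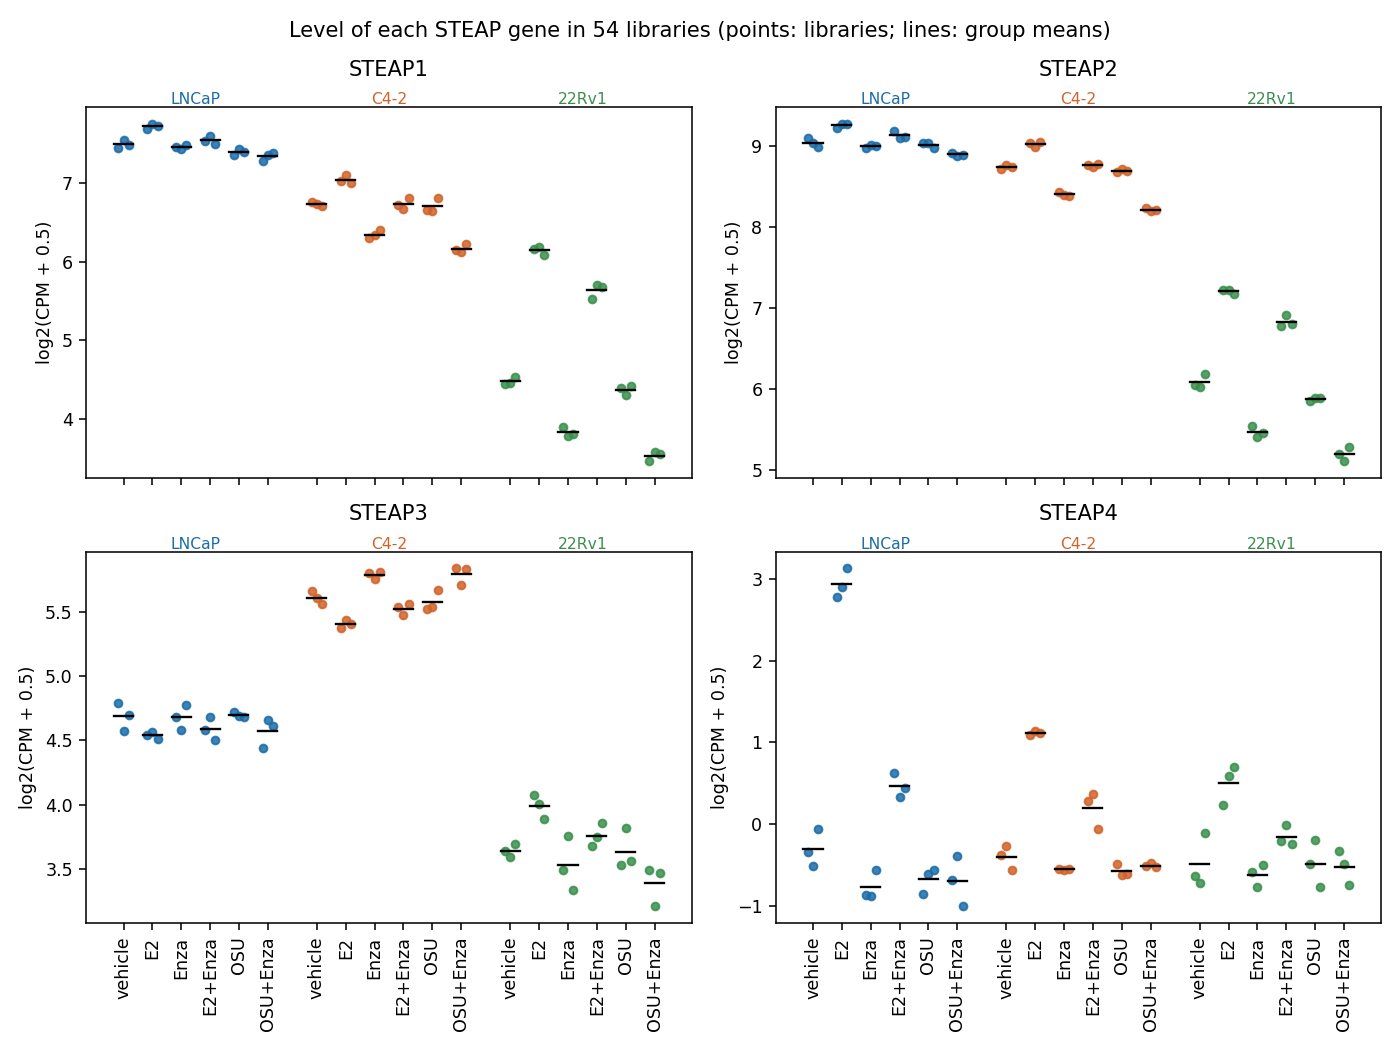
Level of each member, as log2(CPM + 0.5), in the 54 libraries. Points are libraries, black lines are the means of 3 libraries, and colours mark the lines. STEAP1 and STEAP2 were lowest in 22Rv1 and highest with E2 within each line, STEAP3 was highest in C4-2, and STEAP4 stood out in the E2 groups.

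E2 raised STEAP1 and STEAP2 in all 3 lines, most of all in 22Rv1. STEAP1 in 22Rv1 went from 21.3, 21.5 and 22.7 CPM with vehicle to 71.2, 72.1 and 67.3 CPM with E2. STEAP2 in 22Rv1 went from 66.0, 65.1 and 72.8 CPM to 149.3, 149.8 and 145 CPM. No E2 library of either gene overlapped a vehicle library. The changes were 1.66 ± 0.061 on the log2 scale for STEAP1 (3.21-fold in CPM, adjusted p = 2.99e-18) and 1.12 ± 0.053 for STEAP2 (2.18-fold, adjusted p = 1.30e-15). By p, STEAP1 ranked 7 and STEAP2 ranked 16 of 14866 genes tested in that comparison.

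In LNCaP and C4-2 the same pair rose by 16.01 to 24.3%. STEAP1 in LNCaP was at 205, 215 and 211 CPM with E2 and rose by 0.23 ± 0.036 (17.2%, adjusted p = 1.33e-05). STEAP1 in C4-2 was at 129, 137 and 128 CPM and rose by 0.31 ± 0.047 (24.3%, adjusted p = 5.38e-05). In both lines all E2 libraries of STEAP1 lay above all vehicle libraries.
STEAP2 in LNCaP was at 601, 618 and 622 CPM with E2 and rose by 0.21 ± 0.033 (16.01%, adjusted p = 1.26e-05). STEAP2 in C4-2 was at 528, 509 and 533 CPM and rose by 0.29 ± 0.034 (22.1%, adjusted p = 1.24e-06). Its groups did not overlap either. The E2 comparison called 3 of 4 members in LNCaP, where 24.9% of genes were called, all 4 in C4-2, where 5.82% were called, and the 3 tested in 22Rv1, where 27.7% were called. The LNCaP and C4-2 counts include STEAP4, which passed the filter on low values only through libraries with E2. Its calls are not independent of that filter, so these counts are not a clean contrast with the share of all genes.

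STEAP3 moved in opposite directions between lines. In C4-2 it was at 41.2, 42.9 and 41.9 CPM with E2, all below the vehicle libraries, a fall of 0.20 ± 0.048 (adjusted p = 0.00866). In 22Rv1 it was at 16.4, 15.5 and 14.3 CPM, all above the vehicle libraries, a rise of 0.35 ± 0.098 (adjusted p = 0.0106). In LNCaP it was at 22.8, 23.2 and 22.3 CPM, also all below vehicle, with a difference of -0.15 ± 0.064 that was not called (adjusted p = 0.0833). These calls rested on single libraries. The adjusted p was 0.0693 in C4-2 without vehicle 1 and 0.0577 in 22Rv1 without E2 1, and it was 0.0306 in LNCaP without vehicle 2. Without the 5 libraries that stood apart it was 0.154 in C4-2.

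STEAP4, the member known from adipose tissue, went from near the limit of detection to a measurable level with E2. In LNCaP the vehicle libraries held 14, 8 and 21 reads (0.290, 0.204 and 0.462 CPM) and the E2 libraries 285, 325 and 359 reads (6.40, 6.95 and 8.25 CPM). In C4-2 the vehicle libraries were at 0.271, 0.331 and 0.180 CPM and the E2 libraries at 1.63, 1.703 and 1.66 CPM. In 22Rv1 the vehicle libraries were at 0.144, 0.108 and 0.428 CPM and the E2 libraries at 0.672, 1.01 and 1.13 CPM. Every E2 library lay above every vehicle library of its line.

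The CPM of STEAP4 rose 22.6-fold in LNCaP and 6.38-fold in C4-2. The fitted log2 changes were 3.24 ± 0.18 (adjusted p = 6.95e-14) and 1.51 ± 0.18 (adjusted p = 1.19e-06). Because 0.5 CPM is added before the logarithm, these understate the change of so low a gene, and voom weights on the reads gave 2.64 in C4-2. STEAP4 passed the filter on low values through groups that received E2: the libraries at 1 CPM or more numbered 4 of 18 in LNCaP and 3 of 18 in C4-2, all of them with E2. Its call with E2 is therefore not independent of the filter. In 22Rv1 only 2 of 18 libraries reached 1 CPM and the gene was not tested. Without a filter its E2 change there was 0.99 ± 0.17 (adjusted p = 0.000379).

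The response to E2 differed between lines for STEAP1, STEAP2 and STEAP3. In an F test of the E2 effect over 3 lines, which called 29.1% of all genes, the adjusted p was 2.19e-23 for STEAP1, 9.65e-19 for STEAP2 and 0.000164 for STEAP3. For STEAP4 it was 4.73e-11, a value that, like its E2 call, is not independent of the filter on low values. The E2 effect on STEAP1 was larger in 22Rv1 than in LNCaP by 1.43 (95% interval 1.30 to 1.56), and that on STEAP2 by 0.90 (0.79 to 1.01). Between C4-2 and LNCaP the difference was 0.083 for STEAP1 (-0.049 to 0.22) and 0.073 for STEAP2 (-0.037 to 0.18). For STEAP3 the effect in 22Rv1 exceeded that in C4-2 by 0.55 (0.33 to 0.77). For STEAP4 the difference had the other sign: its E2 effect minus that in LNCaP was -1.73 (-2.17 to -1.28) in C4-2 and -2.24 (-2.69 to -1.80) in 22Rv1.

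**Figure D2:**
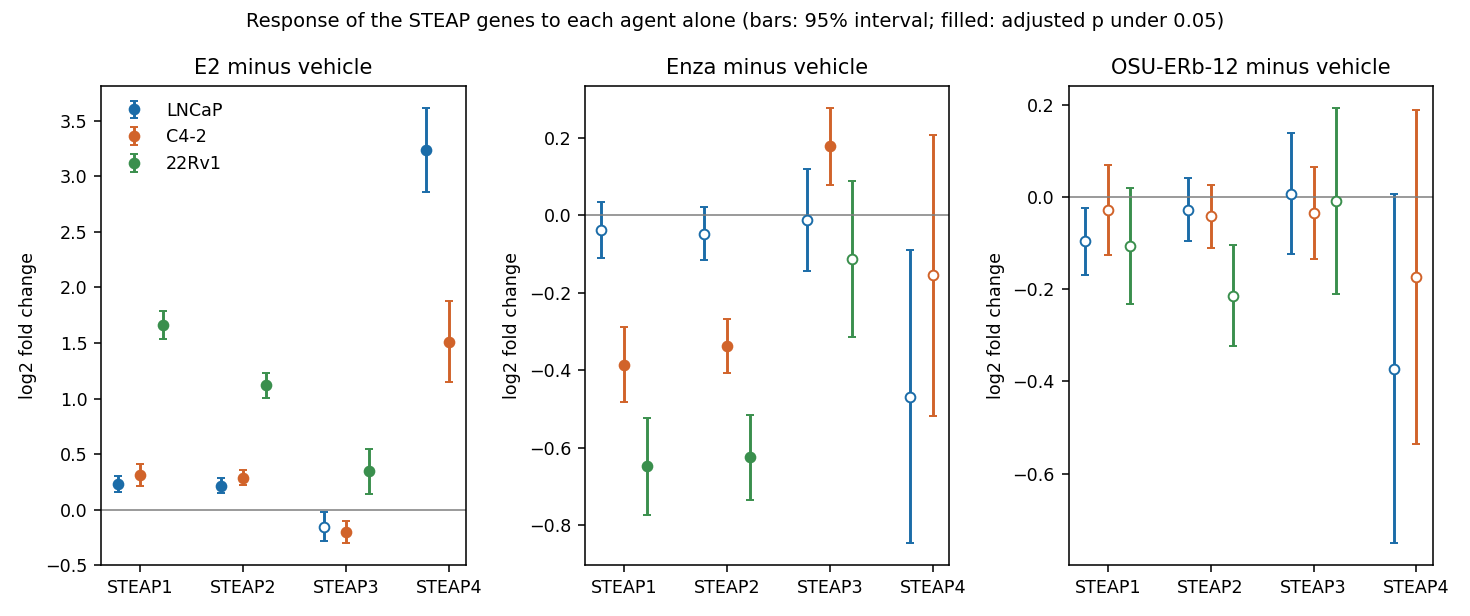
Log2 fold change of each member with each agent alone against vehicle, by line. Bars are 95% intervals, filled points have an adjusted p under 0.05, and the vertical scale differs between panels; STEAP4 in 22Rv1 was not tested. E2 values run from -0.20 (STEAP3 in C4-2) to 3.24 (STEAP4 in LNCaP), while no OSU-ERb-12 value was called.

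Enza alone lowered STEAP1 and STEAP2 in C4-2 and 22Rv1. STEAP1 in C4-2 was at 78.3, 80.5 and 83.8 CPM with Enza, a fall of 0.39 ± 0.047 (adjusted p = 2.29e-06). STEAP1 in 22Rv1 was at 14.4, 13.3 and 13.6 CPM, a fall of 0.65 ± 0.061 (adjusted p = 6.20e-08). These libraries lay below all vehicle libraries of their line.
STEAP2 in C4-2 was at 345, 338 and 335 CPM, a fall of 0.34 ± 0.034 (adjusted p = 8.57e-08). STEAP2 in 22Rv1 was at 46.2, 42.01 and 43.5 CPM, a fall of 0.62 ± 0.053 (adjusted p = 7.43e-09). In 22Rv1 the pair lost 37.0% and 35.4% of its vehicle level, and ranked 7 (STEAP1) and 6 (STEAP2) of 14866 genes by p.

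In LNCaP the same dose of Enza gave no called change of the pair. STEAP1 was at 174, 172 and 178 CPM with Enza (-0.038, 95% interval -0.11 to 0.035, adjusted p = 0.501). STEAP2 was at 503.5, 519 and 513 CPM (-0.047, -0.12 to 0.021, adjusted p = 0.347). Both groups overlapped vehicle. In the same LNCaP libraries 9 of 11 genes of the prostate hormone reference list fell, such as TMPRSS2 (a serine protease, -1.64), and the median of that list was -1.51, against 0.0020 over all genes. The Enza effect differed between lines for STEAP1 (F test, adjusted p = 5.41e-09) and STEAP2 (adjusted p = 1.81e-10), where 13.3% of genes were called, and not past the threshold for STEAP3 (0.134) or STEAP4 (0.445). The Enza effect on STEAP1 minus that in LNCaP was -0.35 in C4-2 (95% interval -0.48 to -0.22) and -0.61 in 22Rv1 (-0.74 to -0.48).

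STEAP3 rose with Enza in C4-2, to 55.4, 53.6 and 55.7 CPM, all above vehicle (0.18 ± 0.048, adjusted p = 0.0211). That call was lost, with adjusted p from 0.0581 to 0.0923, when vehicle 2, vehicle 3, Enza 1 or Enza 3 was left out. In LNCaP (25.2, 23.4 and 26.9 CPM) and in 22Rv1 (10.8, 13.01 and 9.60 CPM) its Enza libraries overlapped vehicle. STEAP4 in LNCaP held 2, 2 and 8 reads with Enza, all below vehicle in CPM, a difference of -0.47 ± 0.18 that was not called (adjusted p = 0.0743) and was called with a pseudocount of 0.1 CPM (-1.16, adjusted p = 0.0307). In C4-2 each Enza library held 8 reads of STEAP4 (0.184, 0.175 and 0.184 CPM). Enza 2 lay below the vehicle libraries and the others overlapped them. Enza against vehicle called 0 of 4 members in LNCaP (20.4% of genes), 3 of 4 in C4-2 (8.44%) and 2 of 3 tested in 22Rv1 (0.659%); at an unadjusted p under 0.05 only STEAP4 passed in LNCaP, and voom called none there.

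E2 still raised both genes of the pair in C4-2 and 22Rv1 when Enza was present. In 22Rv1, E2+Enza brought STEAP1 to 45.8, 51.7 and 50.9 CPM and STEAP2 to 109, 121 and 112 CPM. Against Enza alone these were rises of 1.81 ± 0.061 (3.59-fold) and 1.37 ± 0.053 (2.60-fold). The libraries lay above all vehicle and all Enza libraries and below all E2 libraries. In C4-2, STEAP1 was at 105, 102 and 111 CPM and STEAP2 at 435, 430.4 and 441 CPM, rises of 0.39 ± 0.047 and 0.36 ± 0.034 against Enza.
In LNCaP, STEAP2 was at 585, 549 and 556 CPM with both agents, a rise of 0.14 ± 0.033 against Enza (adjusted p = 0.00257, and 0.0527 with total read scaling). STEAP1 was at 184, 194 and 179.6 CPM, above all Enza libraries, with a difference of 0.087 ± 0.036 that was not called (adjusted p = 0.0799). It was called without E2+Enza 3 (adjusted p = 0.0461) and with cyclic loess (0.0354). STEAP3 fell against Enza in C4-2, from 55.4, 53.6 and 55.7 to 46.0, 44.1 and 46.8 CPM (-0.26 ± 0.048, adjusted p = 0.000517). In 22Rv1 STEAP3 with both agents (12.3, 12.9 and 13.98 CPM) overlapped Enza (0.23, adjusted p = 0.184), and without Enza 2 it was called (adjusted p = 0.0304). This comparison called 2 of 4 members in LNCaP (23.1% of genes), 4 of 4 in C4-2 (7.38%) and 2 of 3 in 22Rv1 (7.94%). The LNCaP and C4-2 counts include STEAP4, whose calls are not independent of the filter on low values.

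Set against E2 alone, adding Enza lowered the pair in each line. The difference for STEAP1 was -0.18 ± 0.036 in LNCaP, -0.31 ± 0.047 in C4-2 and -0.50 ± 0.061 in 22Rv1, and for STEAP2 -0.12 ± 0.033, -0.26 ± 0.034 and -0.38 ± 0.053. For both genes all E2+Enza libraries lay below all E2 libraries. The LNCaP call for STEAP2 (adjusted p = 0.0110) was lost with total read scaling (0.168), with cyclic loess (0.0586) and without E2 3 (0.0542), E2+Enza 2 (0.0785) or E2+Enza 3 (0.0520). The comparison called 3 of 4 members in LNCaP (13.5% of genes), 3 of 4 in C4-2 (3.46%) and 2 of 3 in 22Rv1 (1.2%). STEAP4 is among those called in LNCaP and C4-2, and its calls are not independent of the filter on low values.
Against vehicle, both agents together left STEAP1 in C4-2 at a difference of 0.0016 (95% interval -0.096 to 0.099) and STEAP2 at 0.023 (-0.046 to 0.092). In 22Rv1 the pair stayed above vehicle by 1.16 ± 0.061 and 0.74 ± 0.053. In LNCaP STEAP1 differed from vehicle by 0.049 (adjusted p = 0.443) and STEAP2 by 0.091 (adjusted p = 0.0939), the latter called without vehicle 1 (0.0280). In this comparison 1 of 4 members was called in LNCaP (7.42% of genes), 0 of 4 in C4-2 (0.0784%) and 2 of 3 in 22Rv1 (13.8%). The member called in LNCaP was STEAP4, and that call is not independent of the filter on low values. In C4-2, STEAP4 was the only member with an unadjusted p under 0.05 (0.00232), and voom called none.

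With E2 and Enza together, STEAP4 lay between its vehicle and E2 levels in LNCaP and C4-2. STEAP4 passed the filter on low values only through libraries with E2. Its calls in comparisons with such libraries, the interaction included, are not independent of that filter. In LNCaP it was at 1.04, 0.758 and 0.862 CPM with E2 and Enza, below the E2 libraries (6.40 to 8.25 CPM) and above the vehicle libraries (0.204 to 0.462 CPM). That was a fall of 2.47 ± 0.18 against E2 (adjusted p = 7.93e-11) and a rise of 1.24 ± 0.18 against Enza (adjusted p = 7.62e-06). The rise against vehicle of 0.77 ± 0.18 (adjusted p = 0.00872) was lost without vehicle 2 (0.0593) or E2+Enza 1 (0.0595), and with voom (0.0550).
In C4-2 it was at 0.713, 0.795 and 0.462 CPM, a fall of 0.91 ± 0.18 against E2 and a rise of 0.75 ± 0.18 against Enza. In 22Rv1 it was at 0.367, 0.493 and 0.342 CPM, below the E2 libraries and overlapping vehicle. The E2 effect with Enza minus that without it was -2.003 ± 0.26 for STEAP4 in LNCaP (adjusted p = 4.77e-06). With voom weights, which do not add 0.5 CPM before the logarithm, the same difference was -1.14 with an adjusted p of 0.393. The interaction was called for 1 of 4 members in LNCaP (9.05% of genes), 0 of 4 in C4-2 (1.5%) and 0 of 3 in 22Rv1 (0.424%). STEAP1 in LNCaP had an interaction of -0.14 (adjusted p = 0.0780), called without vehicle 2 (0.0486) or without E2+Enza 2 (0.0404). In C4-2 STEAP4 (-0.76, unadjusted p = 0.00541) and in 22Rv1 STEAP2 (0.25, unadjusted p = 0.00284) were the only members under an unadjusted 0.05, and voom called none in either line. That of STEAP4 was called without a filter (0.0199) and that of STEAP2 in 1 fit of all libraries (0.0117).

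OSU-ERb-12 alone produced small differences, none of them called. STEAP1 with OSU was at 163, 173 and 168 CPM in LNCaP, at 101, 99.2 and 111 CPM in C4-2, and at 20.5, 19.3 and 21.0 CPM in 22Rv1. STEAP2 was at 525, 526 and 504 CPM in LNCaP, 413, 422 and 414 CPM in C4-2, and 57.6, 59.0 and 58.8 CPM in 22Rv1. All 3 OSU libraries lay below all vehicle libraries for STEAP1 in LNCaP and 22Rv1 and for STEAP2 in 22Rv1, and overlapped them in the other cases. The differences for STEAP1 were -0.096 (95% interval -0.17 to -0.023) in LNCaP, -0.028 (-0.13 to 0.069) in C4-2 and -0.11 (-0.23 to 0.019) in 22Rv1. For STEAP2 they were -0.028 (-0.096 to 0.040), -0.042 (-0.11 to 0.027) and -0.21 (-0.32 to -0.10).

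Few genes of any kind were called with OSU alone: 0.014% in LNCaP, 0% in C4-2 and 0% in 22Rv1, against 946, 396 and 298 genes with an unadjusted p under 0.05, and voom called 0 in each line. Among the members, 0 of 4, 0 of 4 and 0 of 3 were called. STEAP2 in 22Rv1 (unadjusted p = 0.000426) and STEAP1 in LNCaP (0.0121) were under 0.05 before adjustment. In 1 fit of all libraries STEAP2 in 22Rv1 was called (adjusted p = 0.0101). STEAP3 differed by 0.0076, -0.034 and -0.0077 in LNCaP, C4-2 and 22Rv1, with overlapping groups. STEAP4 held 2, 7 and 8 reads in LNCaP with OSU, all below vehicle in CPM (-0.37, adjusted p = 0.759), and overlapped vehicle in the other lines.

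With Enza present, STEAP1 and STEAP2 were lower with OSU-ERb-12 than without it in the libraries of every line. STEAP1 with OSU+Enza was at 155, 164 and 166 CPM in LNCaP, 70.6, 69.1 and 74.6 CPM in C4-2 and 10.6, 11.5 and 11.3 CPM in 22Rv1. STEAP2 was at 483, 472 and 477 CPM in LNCaP, 302, 295 and 296 CPM in C4-2 and 36.3, 34.2 and 38.7 CPM in 22Rv1. In all 6 cases every OSU+Enza library lay below every Enza library. The share of all genes that separated in this way is not given here. STEAP1 and STEAP2 were read in the same libraries and had nearly the same pattern, so the 6 cases are not separate observations.
Within lines the difference was called in 22Rv1: -0.30 ± 0.061 for STEAP1 (adjusted p = 0.0492) and -0.27 ± 0.053 for STEAP2 (adjusted p = 0.0395). In C4-2 STEAP1 differed by -0.18 (adjusted p = 0.366) and STEAP2 by -0.19 (0.0517; called by voom, 0.0412), and in LNCaP by -0.11 (0.307) and -0.10 (0.330). The 22Rv1 calls were marginal. Voom ended both (0.196 for STEAP1 and 0.0916 for STEAP2), as did testing without a filter (0.0725 for both). Leaving out any of the 6 libraries ended that of STEAP1 (adjusted p 0.0580 to 0.366), and leaving out Enza 1 (0.361), Enza 2 (0.0927), OSU+Enza 1 (0.145) or OSU+Enza 2 (0.184) ended that of STEAP2. Without the 5 libraries that stood apart the adjusted p was 0.0519 and 0.0743. The comparison called 0 of 4 members in LNCaP (0.0982% of genes, with STEAP1 and STEAP2 at unadjusted p of 0.00360 and 0.00574, and none of the members called by voom), 0 of 4 in C4-2 (0%, with 971 genes at an unadjusted p under 0.05 and 2 called by voom) and 2 of 3 in 22Rv1 (0.101%).

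Averaged over the 3 lines, the OSU effect with Enza was -0.20 ± 0.027 for STEAP1 (adjusted p = 1.13e-05) and -0.19 ± 0.022 for STEAP2 (adjusted p = 4.78e-07). These were 2 of 4 members called among 0.443% of genes, and ranked 4 and 3 of 16026 by p. Both calls stood in all 27 alternatives, and leaving out each library gave values from -0.21 to -0.18 for STEAP1 and from -0.20 to -0.17 for STEAP2. Without Enza the mean effect was -0.077 ± 0.027 for STEAP1 (adjusted p = 0.864) and -0.095 ± 0.022 for STEAP2 (0.242), where 0% of genes and 0 of 4 members were called, with 818 genes at an unadjusted p under 0.05 and 0 called by voom.
The difference between these effects was -0.12 for STEAP1 (95% interval -0.20 to -0.043, adjusted p = 0.471) and -0.092 for STEAP2 (-0.16 to -0.028, 0.525), where 0.0125% of genes and 0 of 4 members were called, so the size with Enza was not shown to differ from that without it. The unadjusted p was 0.00295 for STEAP1 and 0.00593 for STEAP2, and voom called none of the members. STEAP3 and STEAP4 had mean effects with Enza of -0.081 and 0.074, neither called. The mean effects over lines were chosen with earlier results of these data known. The difference between these mean effects, and OSU+Enza against E2+Enza below, were added after seeing the data.

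**Figure D3:**
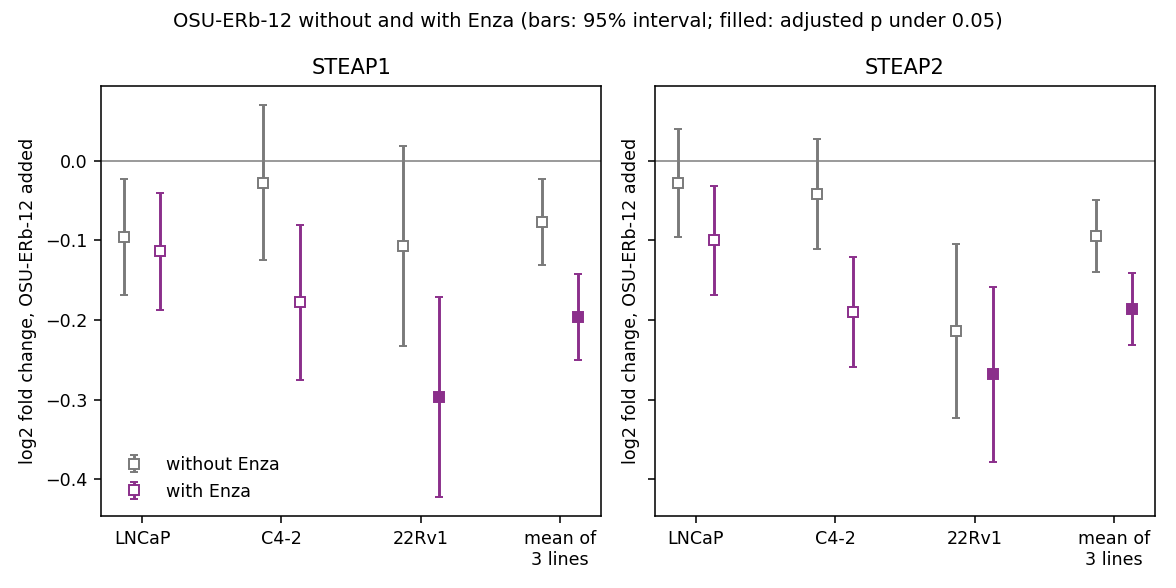
Log2 change of STEAP1 and STEAP2 when OSU-ERb-12 was added to vehicle (grey) or to Enza (purple), in each line and as the mean of 3 lines. Bars are 95% intervals and filled squares have an adjusted p under 0.05. All 16 points lie below 0, and the filled ones are the means with Enza and the 22Rv1 values with Enza.

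E2 and OSU-ERb-12, given at the same dose and for the same time, left the members at different levels. Of 22 comparisons of the members (11 without and 11 with Enza), 20 were called and in 18 of those the OSU group was lower. The counts here and below include STEAP4, which passed the filter on low values only through libraries with E2. Its calls against E2 are therefore not independent of that filter. Without Enza, OSU minus E2 was -0.32 for STEAP1 in LNCaP, -0.34 in C4-2 and -1.77 in 22Rv1, and for STEAP2 -0.24, -0.33 and -1.33, with no overlap. For STEAP4 it was -3.61 in LNCaP and -1.69 in C4-2. STEAP3 was higher with OSU than with E2 in C4-2 (0.17, adjusted p = 0.0348) and lower in 22Rv1 (-0.35, adjusted p = 0.0111), and in LNCaP its difference of 0.16 was not called (adjusted p = 0.0692). The STEAP3 calls were lost without single libraries, C4-2 E2 1 (0.121), E2 3 (0.102) or OSU 3 (0.241), and 22Rv1 E2 1 (0.0623), OSU 1 (0.0691) or OSU 3 (0.0558). The C4-2 call was also lost with total read scaling (0.0688), cyclic loess (0.0583), 1 fit of all libraries (0.191) and without the 5 libraries that stood apart (0.107), and the LNCaP value was called with total read scaling (0.0186). Without Enza the shares of genes called between the ligands were 24.6% (LNCaP), 5.95% (C4-2) and 22% (22Rv1), beside 3 of 4, 4 of 4 and 3 of 3 members.
With Enza, OSU minus E2 was -0.20, -0.56 and -2.10 for STEAP1 in LNCaP, C4-2 and 22Rv1, and -0.24, -0.55 and -1.63 for STEAP2. For STEAP4 it was -1.16 in LNCaP and -0.71 in C4-2, the latter lost without E2+Enza 1 (0.0580) or E2+Enza 2 (0.0706). For STEAP3 it was 0.27 in C4-2, -0.37 in 22Rv1 and, without a call, -0.019 in LNCaP. The 22Rv1 value was lost without E2+Enza 3 (0.0916), without OSU+Enza 2 (0.0950) or without the 5 libraries that stood apart (0.0576). Here 24.1%, 6.49% and 8.83% of genes and 3 of 4, 4 of 4 and 3 of 3 members were called.

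STEAP1 and STEAP2 had nearly the same pattern. After the mean of each line was subtracted, their log2 levels over the 18 group means had a Pearson r of 0.995, and among 14325 genes ranked each was the most similar gene to the other. Within the 6 groups of a line r was 0.970 in LNCaP, 0.999 in C4-2 and 0.997 in 22Rv1. Other genes among the most similar were TBCEL, PPP3CA (a catalytic subunit of calcineurin) and DIRAS2 for STEAP1, and SLC36A4, LRP12 and GCNT1 for STEAP2, with r from 0.941 to 0.961. These points share libraries, normalisation and treatments, and the 22Rv1 groups span the widest range.

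**Figure D4:**
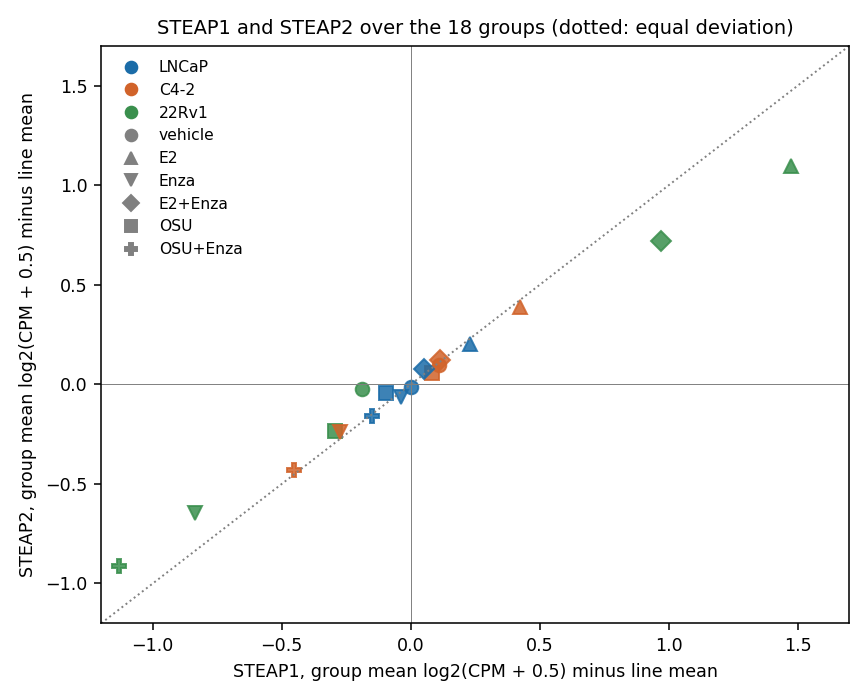
STEAP1 against STEAP2 over the 18 groups, each as the group mean of log2(CPM + 0.5) minus the mean of the line's 6 groups. Colours mark lines, symbols mark treatments, and the dotted line marks equal deviation. The C4-2 groups lie along the dotted line, and the 22Rv1 groups with E2 lie below it.

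The pair did not move by equal amounts in 22Rv1. There the ratio of STEAP2 to STEAP1 in CPM was 3.02 to 3.21 in the vehicle libraries and 2.08 to 2.15 in the E2 libraries, without overlap. It was 2.20 to 2.39 with E2+Enza and 3.16 to 3.21 with Enza, and with OSU it was 2.80 to 3.06. In LNCaP the ratio was 2.82 to 3.19 with vehicle and 2.87 to 2.95 with E2, and in C4-2 it was 3.91 to 4.14 and 3.71 to 4.17, so the groups overlapped in those lines.

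**Figure D5:**
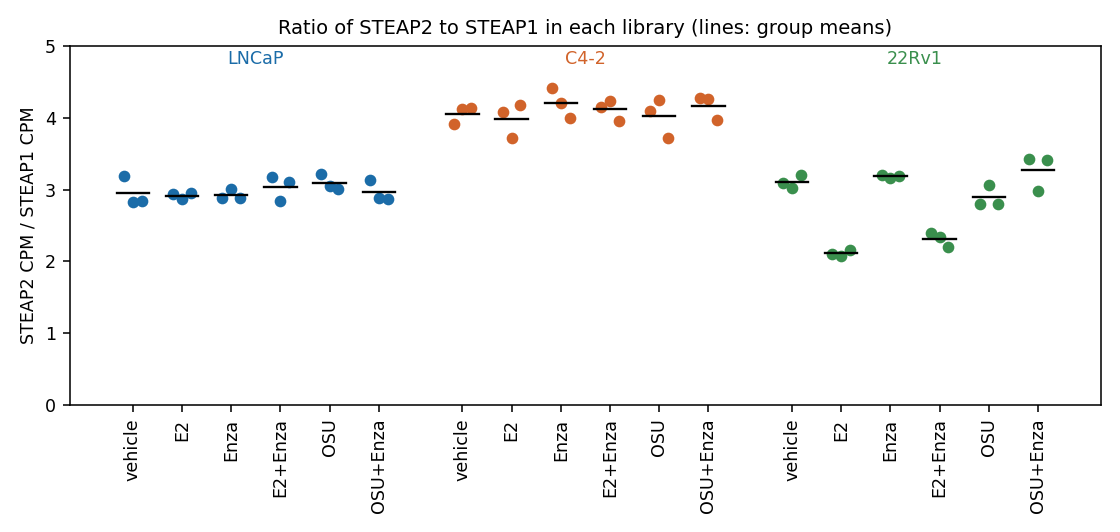
Ratio of STEAP2 to STEAP1 in CPM in each library, by line and treatment, with group means as black lines. The 22Rv1 groups with E2 lie between 2.08 and 2.39, below the other groups of that line.

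STEAP3 and STEAP4 had other closest genes. For STEAP3 these were MIA3, which acts in protein export from the endoplasmic reticulum (0.920), and XPO6, a nuclear export receptor (0.875). For STEAP4 they were RUNX1, a transcription factor (0.976), SLC41A1, a magnesium transporter (0.974), and NDRG1 (0.968), followed by PEX2 and EPS15. With E2, RUNX1 rose by 2.17 in LNCaP and by 1.15 in C4-2, and SLC41A1 rose by 0.95, 0.58 and 0.25 in LNCaP, C4-2 and 22Rv1. NDRG1 rose by 2.42, 0.60 and 1.01. These genes were picked for likeness to STEAP4 over the same groups, so their rises with E2 are not separate from that choice.

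Around the members, 22 other measured genes lie within 500 kb, and 14 of them were tested in each line. With E2, 4 of the 14 were called in LNCaP, 2 in C4-2 and 9 in 22Rv1, beside 24.9%, 5.82% and 27.7% of all genes. Next to STEAP2, CFAP69 (1.77 kb away, mean 6.08 CPM with vehicle in 22Rv1) rose by 0.62 in 22Rv1 and by 0.47 in C4-2, and differed by -0.11 in LNCaP without a call. CLDN12, a claudin 239 kb from STEAP1, rose by 0.33, 0.40 and 0.34 in LNCaP, C4-2 and 22Rv1. GTPBP10, between them, rose by 0.20 in 22Rv1, and differed by -0.0077 in LNCaP and -0.070 in C4-2. Near STEAP3, DBI (an acyl-CoA binding protein, 101 kb away) rose with E2 by 0.56 in LNCaP and by 1.44 in 22Rv1. SRI, 43.9 kb from STEAP4, rose by 0.16 in 22Rv1, where STEAP4 was not tested. With Enza 3, 3 and 1 of the 14 were called in LNCaP, C4-2 and 22Rv1, beside 20.4%, 8.44% and 0.659% of all genes, and with OSU alone 0 in each line.

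The lists of genes that handle the same metals are given beside the share of all genes called with E2, which was 24.9% in LNCaP, 5.82% in C4-2 and 27.7% in 22Rv1. Of 25 tested genes of iron uptake, storage and export, E2 raised 2 and lowered 4 in LNCaP, and raised 3 and lowered 3 in 22Rv1, and of 24 in C4-2 it raised 1. In LNCaP, SLC39A8, a zinc and iron importer, went from 57.8 to 48.5 CPM (-0.25 ± 0.043), while in 22Rv1 it went from 85.9 to 127.6 CPM (0.57 ± 0.050). TFRC, the transferrin receptor that brings iron to the endosome of STEAP3, fell by 0.12 in LNCaP. SLC25A37, a mitochondrial iron importer, rose by 0.19 in LNCaP and by 0.15 in C4-2.
Of copper handling genes E2 raised 3 of 16 and lowered 1 in LNCaP, raised 4 of 16 in 22Rv1, and called 0 of 15 in C4-2. Of the other membrane reductases it called 0 of 8 in LNCaP and in C4-2, while in 22Rv1 2 of 10 rose and 2 fell. Zinc transporters rose in 4 and fell in 2 of 16 cases in LNCaP, fell in 1 of 15 in C4-2 and rose in 6 of 15 in 22Rv1. Among them SLC30A4, a zinc exporter, fell by 0.28 in LNCaP and by 0.39 in C4-2. Median changes of these 4 lists with E2 lay between -0.064 and 0.16, against medians over all genes of -0.0056, -0.029 and 0.033 in LNCaP, C4-2 and 22Rv1.

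With Enza, the iron list had 3 genes higher and 6 lower of 25 in LNCaP, 1 higher and 4 lower of 24 in C4-2 and none called of 25 in 22Rv1. The share of all genes called with Enza was 20.4%, 8.44% and 0.659% in these lines. Copper genes rose in 2 of 16 cases and other reductases in 2 of 8 in LNCaP, and 0 were called in C4-2 and 22Rv1. Zinc transporters had 3 higher and 3 lower of 16 in LNCaP, 4 lower of 15 in C4-2 and 0 called of 15 in 22Rv1.
Of the hormone reference list under E2, 9 of 11 genes rose in LNCaP and in C4-2 and 9 of 10 in 22Rv1, 1 fell in each line (FOLH1), and FKBP5, a chaperone widely used as an androgen receptor readout, rose by 2.56, 1.42 and 2.22. With Enza 9 of 11, 9 of 11 and 5 of 10 fell. Of the p53 targets, a list chosen because STEAP3 is one, E2 lowered 13 of 16 and raised 1 in LNCaP, lowered 4 and raised 1 in C4-2, and raised 4 and lowered 2 in 22Rv1, beside 24.9%, 5.82% and 27.7% of all genes called in either direction. Among these the E2 value of TP53INP1 was -0.90 for LNCaP, -0.19 for C4-2 and 0.27 for 22Rv1. Under Enza p53 targets rose in 9 of 16 cases in LNCaP, in 2 of 16 in C4-2 and in 0 of 16 in 22Rv1. The mean OSU effect with Enza was called for 0.443% of all genes. It was called for 3 of 11 hormone reference genes, all lower, among them KLK2 (-0.24) and KLK3 (-0.25). It was also called for 1 of 26 iron genes (SLC39A8, -0.11) and for 1 of 16 zinc transporters (SLC39A10, -0.14).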

How the data were processed

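Total RNA of 54 cultures (3 lines, 6 treatments, 3 replicates) was sequenced. Per the submitters' processing notes and the series' design text, FastQC, Trimmomatic, featureCounts of Rsubread and edgeR were used with build hg38, while versions and the counting's strand setting are not given in the sources used. The deposited values are scores on a log2 scale: the authors' table was found to hold log2 of (reads plus 0.5) per 1000000, each library then multiplied by a constant that brings its column total to 1000000. From 24.3 to 30.1% of the values in a library were negative. Dividing out the factor gave whole reads for 100% of values (tolerance 0.01), and CPM here use the authors' effective library sizes.

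Groups follow the treatment labels. OSU-ERb-12 libraries carry WT in their titles. Genes with at least 1 CPM in 3 libraries were tested with limma 3.58.1 (R 4.3.3, with an intensity trend) on log2(CPM + 0.5), each line alone (18 libraries, 12 residual degrees of freedom); lines, differences between lines and means over lines used all 54 libraries (36 degrees of freedom). P-values were adjusted by Benjamini-Hochberg over all genes tested, with a threshold of 0.05, and intervals are 95%. The model was tested on reads simulated for LNCaP alone, with changes set in genes above 2 CPM, and the outcome is not reported here. That test does not cover STEAP4, which was below this level at vehicle, the other lines or the fit of all 54 libraries. The members, lists and comparisons were chosen with earlier results of these data known. Named genes were the 4 members, their copy and antisense genes, at most 4 genes of a list by p with E2 in LNCaP and 2 elsewhere, the 5 genes most like each member, and neighbours within 500 kb; some genes that the rule names are not reported here. Other genes named (CFAP69, GTPBP10, CLDN12, DBI and SRI among the neighbours, FOLH1, FKBP5 and TMPRSS2 in the hormone list) were picked from these after their values were seen. Lists covered iron, copper, other reductases, zinc, hormone reference genes and p53 targets. Symbols matched RefSeq (GRCh38.p14) for 18899 of 19225 identifiers. Alternatives were other pseudocounts (0.1 and 2 CPM), no filter, TMM, total reads, cyclic loess, voom, 1 fit of all libraries, a replicate block, leaving out each library, and, added after seeing the data, leaving out the 5 libraries that stood apart. Pairing of samples by replicate number was not shown: over 30 pairs of groups none had all same-numbered correlations over 0.1. Single correlations ran from -0.515 to 0.308, and this rule cannot exclude a weak pairing or one in some groups only. Precision is limited by 3 cultures per group; whether these were independent cultures is given only as biological triplicate.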

Additional observations from a re-analysis of the deposited data

Results flagged for a closer look

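The response to E2 differed between the 3 lines by an F test of the difference between lines (limma, adjusted over all genes tested). The adjusted p was 2.19e-23 for STEAP1, where the log2 change was 0.23 in LNCaP, 0.31 in C4-2 and 1.66 in 22Rv1. It was 9.65e-19 for STEAP2, with changes of 0.21, 0.29 and 1.12. For STEAP3 it was 0.000164, with a value of -0.15 in LNCaP that was not called, a fall of 0.20 in C4-2 and a rise of 0.35 in 22Rv1. For STEAP4 it was 4.73e-11, with changes of 3.24 in LNCaP and 1.51 in C4-2 and, without a filter on low values, 0.99 in 22Rv1. STEAP4 passed the filter on low values only through libraries with E2, so its value is not independent of that filter.

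The response to Enza differed between lines for STEAP1 (adjusted p = 5.41e-09; -0.038 in LNCaP, not called, -0.39 in C4-2 and -0.65 in 22Rv1). It also differed for STEAP2 (adjusted p = 1.81e-10; -0.047, not called, -0.34 and -0.62).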

How the results depend on the processing

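Of 169 values for the STEAP genes, 89 were called, and 75 of those were called under every alternative run. No called value changed sign. An alternative in which a gene failed the filter on low values was left out of this count. STEAP4 in C4-2 could not be tested without any 1 of its E2 libraries. Its E2 call there thus rests on 12 alternatives, against 16 for STEAP1. STEAP4 with Enza in LNCaP was called with a pseudocount of 0.1 CPM (-1.16, adjusted p = 0.0307) and in 1 fit of all libraries (-0.47, 0.0366). STEAP3 with E2 in LNCaP was called with total read scaling (-0.20, 0.0271), and its values without single libraries ran from -0.21 to -0.10. STEAP3 with E2 in C4-2 was not called in 1 fit of all libraries (-0.20, 0.108) or without the 5 libraries that stood apart (-0.18, 0.154), with a range of -0.23 to -0.18 without single libraries. STEAP3 with E2 in 22Rv1 ranged from 0.30 to 0.40. STEAP3 with Enza in C4-2 was not called in 1 fit (0.18, 0.141) and ranged from 0.16 to 0.20. STEAP2 with OSU-ERb-12 in 22Rv1 was called in 1 fit of all libraries (-0.21, 0.0101). The cause was not tested. With the replicate block STEAP1 with E2 in 22Rv1 was 1.66 (adjusted p = 1.28e-17), and the block changed 4 of 169 calls: STEAP1 with E2+Enza against Enza (0.0481) and its interaction (0.0460) in LNCaP were gained, and STEAP1 (0.0664) and STEAP2 (0.0515) with OSU+Enza against Enza in 22Rv1 were lost. Depth limits STEAP4, which held 0 to 21 reads in the libraries without E2.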

Other observations

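Over the 6 group means of a line, the Pearson r between STEAP1 and STEAP3 was -0.48 in LNCaP, -0.97 in C4-2 and 0.96 in 22Rv1, as a description of points that share libraries and normalisation. Between STEAP1 and STEAP4 it was 0.94, 0.75 and 0.90. In C4-2 the STEAP3 libraries were lowest with E2 (41.2 to 42.9 CPM) and highest with OSU+Enza (52.0 to 56.9 CPM) and Enza (53.6 to 55.7 CPM). In 22Rv1 they were highest with E2 (14.3 to 16.4 CPM) and lowest with OSU+Enza (8.75 to 10.8 CPM).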
